A study of Mus musculus with 16 samples.

Results

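Transcripts of 7 genes of the interleukin 1 (IL-1) system were measured by bulk RNA-seq in liver neutrophils that either had or lacked the receptor for interferon gamma. The 7 genes are the ligands Il1a, Il1b and Il36g, the antagonist Il1rn, and the receptor chains Il1r1, Il1r2 and Il1rap. They were chosen by name, with earlier results of these data known, and each matched 1 Ensembl identifier of the 54532 in the deposited table. Il36g stands there under the older symbol Il1f9, which RefSeq lists as the same gene. Of the 7, 6 passed the filter on low counts and were tested among 9851 genes, and Il1r1 did not pass it.

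The cells came from 8 mixed bone marrow chimeras on the C57BL/6 strain, numbered 2 to 9. Wild-type hosts had been irradiated with about 1000 cGy and had received 50% wild-type CD45.1+ marrow and 50% Ifngr1-/- CD45.2+ marrow, 8 weeks before tumours were placed. MC38 colon carcinoma cells had been placed in the flank of every mouse, which was then given an agonist antibody against CD40 1 week after the tumour cells. Neutrophils of both genotypes were sorted from each liver 2 days after the antibody, which gave 8 WT and 8 Ifngr1_KO libraries, 1 of each per mouse. Every mouse was tumour-bearing and treated, so the data hold no untreated level, and host cells that survived irradiation would carry an intact receptor. The donor, the CD45 allele and the gate used for sorting were always those of the genotype, so none of them can be told apart from loss of the receptor.

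IL-1 alpha and IL-1 beta are cytokines that start inflammation by binding the receptor IL-1R1, which then recruits the accessory chain IL-1RAP and signals through MYD88 to NF-kB. The receptor antagonist encoded by Il1rn occupies IL-1R1 without recruiting the accessory chain, and IL-1R2 is a decoy that binds ligand but lacks the intracellular signalling domain. Neutrophils are known as carriers of IL-1R2 and as makers of IL-1 beta, whose precursor is cut by caspase-1 and can leave the cell through pores of gasdermin D. IL-36 gamma, from the same gene family, acts on a separate receptor that shares IL-1RAP. Interferon gamma is known both to prime myeloid cells and, in some settings, to restrain IL-1 production, and the comparison asks whether these transcripts depended on the neutrophil's own interferon gamma receptor.

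The genes lie in 3 places of the mouse genome (build mm10). On chromosome 2, Il36g (24186476 to 24193568) and Il1rn (24336853 to 24351494), both on the plus strand, are 143.3 kb apart, and Il1a (129299610 to 129309972) and Il1b (129364570 to 129371139), both on the minus strand, are 54.6 kb apart. On chromosome 1, Il1r2 (40074079 to 40125231) and Il1r1 (40225080 to 40317257) are neighbours on the plus strand with a gap of 99.8 kb. Il1rap is on chromosome 16 (26581704 to 26730117, plus strand). Promoter windows, reaching from 250 bases before a RefSeq transcription start to 50 bases from it, were found for all 7 genes under their GRCm38.p6 entries, 10 windows in all. The windows of the 4 most abundant members are shown because these transcripts hold nearly all of the family's reads, with that of Il18bp, the pathway gene with the largest log2 fold change in the lists described further on. Capitals mark matches on either strand to the gamma-activated site TTCNNNGAA, the interferon response element core GAAANNGAA, the kappa B core GGNNTTTCC or the TATA box TATAAA. Each line runs 5′ to 3′ on the strand of the gene.
Il1b (chr2:129371090-129371389, minus strand): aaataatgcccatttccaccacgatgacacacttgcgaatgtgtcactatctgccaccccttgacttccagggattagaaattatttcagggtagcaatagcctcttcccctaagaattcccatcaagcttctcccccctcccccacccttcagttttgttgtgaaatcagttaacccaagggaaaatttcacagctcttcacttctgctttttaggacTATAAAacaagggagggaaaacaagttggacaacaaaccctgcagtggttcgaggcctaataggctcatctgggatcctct
Il36g (chr2:24186226-24186525, plus strand): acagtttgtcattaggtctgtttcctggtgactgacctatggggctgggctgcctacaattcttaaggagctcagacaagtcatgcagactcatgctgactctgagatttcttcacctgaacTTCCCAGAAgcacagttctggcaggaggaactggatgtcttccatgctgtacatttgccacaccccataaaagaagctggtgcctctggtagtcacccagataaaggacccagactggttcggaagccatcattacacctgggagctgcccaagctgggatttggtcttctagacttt
Il1rn (chr2:24345121-24345420, plus strand): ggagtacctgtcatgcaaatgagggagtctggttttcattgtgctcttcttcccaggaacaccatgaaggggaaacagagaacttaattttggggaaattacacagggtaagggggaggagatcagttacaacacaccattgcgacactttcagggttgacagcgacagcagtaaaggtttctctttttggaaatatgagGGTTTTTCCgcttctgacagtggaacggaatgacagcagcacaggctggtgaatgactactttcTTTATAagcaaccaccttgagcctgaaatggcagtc
Il1r2 (chr1:40085843-40086142, plus strand): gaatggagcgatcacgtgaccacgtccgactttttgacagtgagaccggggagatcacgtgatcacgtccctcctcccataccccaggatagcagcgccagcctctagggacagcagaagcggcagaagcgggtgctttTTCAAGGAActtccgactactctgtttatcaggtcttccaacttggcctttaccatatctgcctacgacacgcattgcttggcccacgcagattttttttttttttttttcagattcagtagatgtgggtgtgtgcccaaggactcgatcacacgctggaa
Il18bp (chr7:102018183-102018482, minus strand): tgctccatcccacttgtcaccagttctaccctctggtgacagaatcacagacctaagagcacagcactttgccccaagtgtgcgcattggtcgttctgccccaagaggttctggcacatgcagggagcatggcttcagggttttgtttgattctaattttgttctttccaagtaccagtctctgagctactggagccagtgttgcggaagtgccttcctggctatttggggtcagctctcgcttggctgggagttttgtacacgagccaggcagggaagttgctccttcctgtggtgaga
The Il1b window held a TATA box that begins at position -31 from the start and no other match, and the Il1a window had its TATA box at -32. The windows of Il36g and Il1r2 each held 1 gamma-activated site, TTCCCAGAA at -128 and TTCAAGGAA at -111. The Il1rn window shown, from 1 of its 3 annotated starts, held the kappa B match GGTTTTTCC at -50 and a TATA match on the other strand at 15, past the start. The window at the outermost start of Il1rn (24336610 to 24336909) held none of the 4 motifs. The remaining Il1rn window overlaps the one shown and held the same kappa B site alone, at 31, past its own start. The Il1rap window held 1 interferon response core, and the 2 windows of Il1r1 and the Il18bp window held none of the 4 motifs. Windows of other pathway genes that were called, described further on, were searched too. Icam1 held the gamma-activated site TTCCCGGAA at -42, and Sod2 held TTCCCAGAA at -185. Icam1, Cxcl3 and Ier3 held kappa B matches. Tnf held a TATA box alone, Casp1 held none of the 4 motifs, and no window was found for Gsdmd. The Il18bp window stops at 102018482, short of the upstream end of the annotated gene at 102018690. The Il1r2 window begins at 40085843, inside the gene, which starts at 40074079. Sequence at the outermost annotated starts of Il18bp and Il1r2 was therefore not searched. Among 32817 windows of the same length, 8.29% held a gamma-activated site, 8.55% the interferon response core, 5.83% the kappa B core and 13.62% a TATA box. These are matches of letters and do not show that a factor was bound.

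Library totals ran from 12.5 to 21.7 M estimated counts, and Ifngr1, the deleted gene, served as a check of the labels. Its level ran from 228 to 358 CPM (counts per 1 M counts, after scaling between libraries) in WT and from 38.8 to 119 CPM in Ifngr1_KO, without overlap. Ifngr1 reads thus remained in every Ifngr1_KO library (log2 fold change -1.94, SE 0.20, edgeR adjusted p = 2.5e-04), and their source was not tested. All 8 neutrophil markers examined were present in every library, at a summed 32011 to 54243 CPM in WT and 27319 to 83274 CPM in Ifngr1_KO. Those of hepatocytes summed to 385 to 1701 CPM in WT and 445 to 1629 CPM in Ifngr1_KO. The 9 Kupffer cell markers summed to 17.9 to 40.2 CPM in WT and 19.9 to 34.9 CPM in Ifngr1_KO, with Vsig4 at 0 in all libraries. The 8 monocyte and macrophage markers summed to 2229 to 3523 CPM in WT and 1480 to 2658 CPM in Ifngr1_KO, lower in Ifngr1_KO in all 8 mice; most of that sum was Csf1r and Ly6c2. Of the 7 tested, Ly6c2 (log2 fold change -0.73, edgeR adjusted p = 0.00543) and Adgre1 (-1.11, adjusted p = 0.0108) were called lower, and none higher. Their part in the results on the IL-1 genes and their pathway was not tested. Library totals were lower in Ifngr1_KO than in WT in every mouse except mouse 4. Mitochondrially encoded mRNAs took 0.294 to 1.19% of WT counts and 0.475 to 2.503% of Ifngr1_KO counts. That share was higher in Ifngr1_KO in mice 3, 5, 6, 7, 8 and 9 and lower in mice 2 and 4. The Ifngr1_KO library of mouse 7 had the highest such share, and 22.8% of its counts were in its top 10 genes, against 15.2 to 17.8% elsewhere.

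Together the 7 genes took 1.53 ± 0.293% of all counts in WT and 1.58 ± 0.244% in Ifngr1_KO (SD, n = 8 libraries each). The lowest share, 1.06%, was in the Ifngr1_KO library of mouse 7, and the highest, 2.23%, in the WT library of mouse 9. To compare genes with each other, CPM was divided by the length of all annotated exons in kilobases. On that scale Il1b stood first, at 4017 ± 749 CPM per kb over the 16 libraries, and it held rank 9 to 19 among the genes of a WT library and rank 15 to 47 in Ifngr1_KO. Il36g followed at 1147 ± 155, Il1rn at 887 ± 152, Il1r2 at 427 ± 67.8 and Il1a at 88.9 ± 29.4 CPM per kb. Il1rap had 7.82 ± 2.60 CPM per kb, and Il1r1 had 0.0245 ± 0.0863 (SD, n = 16). Each gene was above the next in all 16 libraries. The ranges over libraries of Il36g and Il1rn, and of Il1rn and Il1r2, overlapped, and the order of Il36g and Il1rn was exchanged when the median length of the annotated transcripts was used, 1147 against 3619 CPM per kb. By that length Il1r2 had 899 and Il1rap 27.9 CPM per kb, in the same places of the order. The receptor side was thus uneven. The decoy chain was abundant, the accessory chain was lower by either length, and the signalling receptor was at or near 0.

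**Figure D1:**
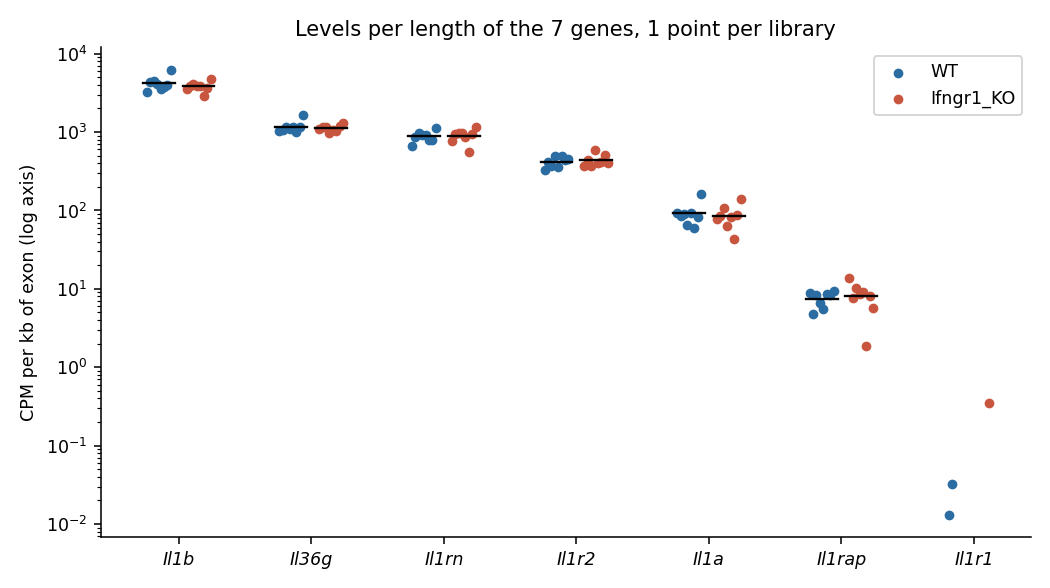
Level of each of the 7 genes in CPM per kb of exon (log axis), 1 point per library in order of mouse number, WT in blue and Ifngr1_KO in red, with a bar at the group mean for genes above 0 in all libraries. Il1r1 shows 3 points because 13 libraries were listed at 0, and the remaining genes span more than 2 orders of magnitude with WT and Ifngr1_KO at like levels.

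None of the 6 members tested was called between the genotypes (edgeR quasi-likelihood test with mouse as a block, adjusted p under 0.05), and none had an unadjusted p under 0.05. Of all 9851 genes tested 2.80% were called, 2.32% lower and 0.477% higher in Ifngr1_KO, and 0 of 6 is not far from that background. With library totals in place of TMM scaling the split over all genes was 164 lower and 102 higher, against 229 and 47. The members were measured closely. The standard error of the log2 fold change was 0.083 to 0.10 for Il1a, Il1b, Il36g, Il1rn and Il1r2, and 98.0 to 99.8% of all genes tested had a larger one. For these 5 genes the 95% interval of the Ifngr1_KO to WT ratio lay between 0.794 and 1.19. The median log2 fold change was -0.014 over the 6 members and 0.046 over all genes tested. DESeq2 and limma-voom also called none of the 6, and none had an unadjusted p under 0.05 by either. In bulk RNA, fewer expressing cells and less RNA per cell cannot be told apart.

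Il1b, the gene of the main secreted IL-1 agonist, had 6264, 8214, 8493, 7929, 6703, 7099, 7633 and 11936 CPM in the WT libraries of mice 2 to 9. The Ifngr1_KO libraries of the same mice had 6757, 7364, 7752, 7432, 7436, 5578, 6866 and 9103 CPM. The groups overlapped widely, the highest value of each came from mouse 9, and Ifngr1_KO was above WT in mice 2 and 6 alone. Il1b averaged 8034 ± 1749 CPM over the WT libraries and 7286 ± 996 CPM over the Ifngr1_KO libraries (SD, n = 8). This gave a log2 fold change of -0.13 (edgeR adjusted p = 0.504, SE 0.086), with a ratio interval of 0.802 to 1.05. An antisense transcript, Il1bos, shares 25 exonic bases with Il1b, but it held 10 to 124 counts per library against 65791 to 190287 for Il1b.

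Il1a, whose product is active without cleavage and is also released by dying cells, had 183, 169, 181, 130, 185, 118, 162 and 321 CPM in WT from mouse 2 to mouse 9. The Ifngr1_KO values were 153, 168, 213, 127, 162, 85.4, 173 and 280 CPM. Mouse 9 was again highest and mouse 7 lowest in each genotype. For Il1a the log2 fold change came to -0.10 (SE 0.10, edgeR adjusted p = 0.659, ratio interval 0.794 to 1.09), with Ifngr1_KO above WT in 2 of 8 mice. A transcript on the opposite strand, Gm14023, shares 222 exonic bases with Il1a and held 7 to 109 counts per library. Il1a reads were few beside those of Il1b. The count ratio of Il1a to Il1b was 0.0225 ± 0.00491 in WT and 0.0229 ± 0.00510 in Ifngr1_KO (SD, n = 8), a difference of 0.024 ± 0.27 on the log2 scale (p = 0.813 by an exact sign-flip test of both sides over the 8 mice; adjusted p = 0.813 over 3 ratios).

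Il36g, the IL-36 ligand, had 1710, 1765, 1897, 1790, 1893, 1673, 1936 and 2701 CPM in WT. In Ifngr1_KO it had 1825, 1937, 1937, 1627, 1762, 1679, 1968 and 2141 CPM. Apart from the WT library of mouse 9, all 15 values fell between 1627 and 2141 CPM, and the genotypes were mixed within that span. Il36g had a log2 fold change of -0.036 (edgeR adjusted p = 0.862) with the smallest standard error of the family, 0.083, and a ratio interval of 0.859 to 1.11. The other IL-36 ligands of the list, Il36a and Il36b, summed to 14 and 10 counts over the WT libraries and 12 and 10 over the Ifngr1_KO libraries. The IL-36 receptor chain Il1rl2 summed to 165 and 17 counts and was at 0 in 12 of 16 libraries.

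Il1rn, the antagonist, was the second most counted member. The WT libraries of mice 2 to 9 had 3637, 4812, 5412, 5102, 5045, 4417, 4367 and 6247 CPM. The Ifngr1_KO libraries had 4233, 5159, 5371, 5359, 4737, 3123, 5211 and 6341 CPM. Ifngr1_KO was above WT in 5 of 8 mice, and the Ifngr1_KO library of mouse 7 was the lowest of all 16. Its log2 fold change was 0.0087 (SE 0.096, edgeR adjusted p = 0.976, ratio interval 0.869 to 1.17).

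The balance of antagonist to ligand was measured within each library, where scaling between libraries plays no part. Counts of Il1rn were 0.615 ± 0.0682 of those of Il1b in WT and 0.674 ± 0.0629 in Ifngr1_KO (SD, n = 8). The ratio was higher in Ifngr1_KO in 6 of 8 mice, and lower in mice 6 and 7. The difference was 0.14 ± 0.24 on the log2 scale, from -0.24 in mouse 6 to 0.41 in mouse 9 (p = 0.148 by the same exact test; adjusted p = 0.445). These are ratios of counts, not of molecules, since the transcripts differ in length.

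**Figure D2:**
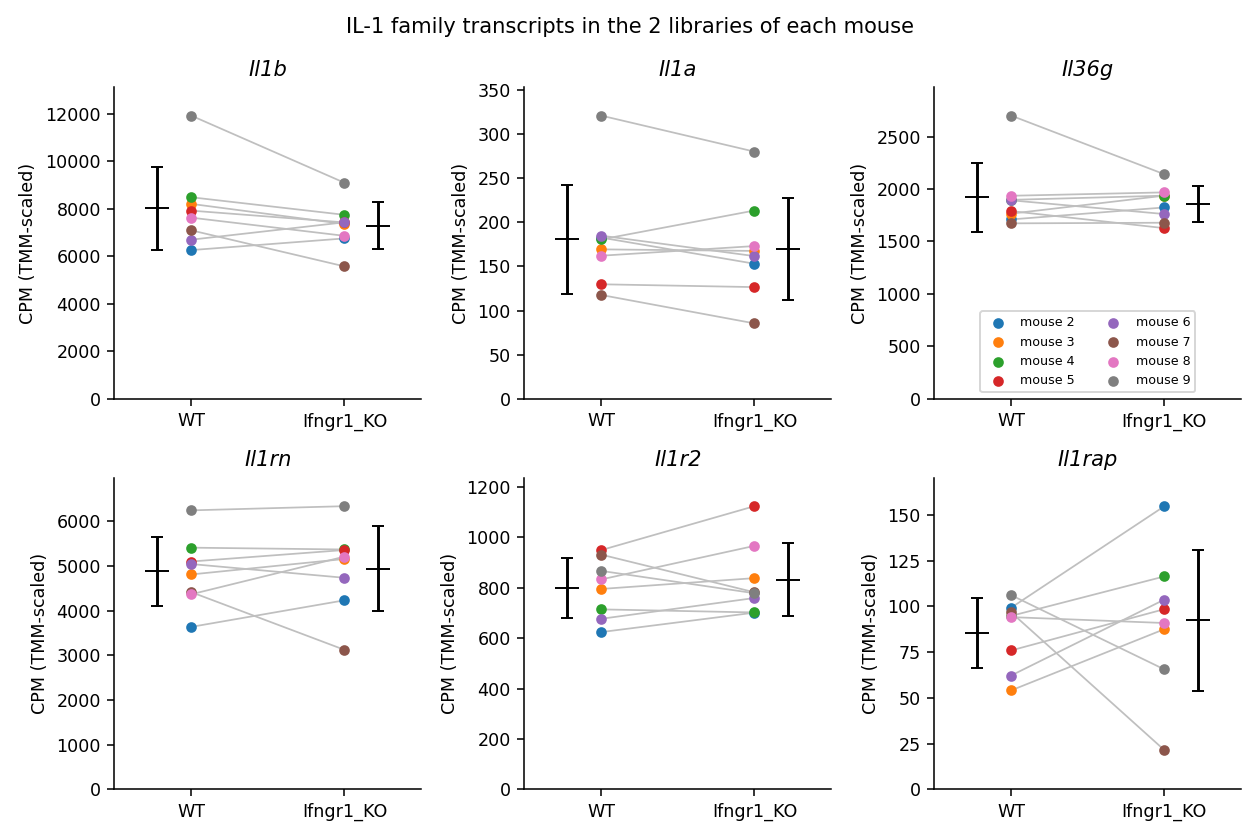
CPM of the 6 tested genes in the WT and Ifngr1_KO library of each mouse (points in the colour of the mouse, joined by a line), with the mean and SD of each group as black bars; each axis starts at 0. Lines rise and fall in every panel, mouse 9 is highest for Il1b, Il1a, Il36g and Il1rn in each genotype, and the Ifngr1_KO library of mouse 7 is lowest for Il1rap at 21.4 CPM.

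Il1r1, the signalling receptor, was close to undetected. It was listed at 0 in 13 of 16 libraries, and the other 3 had 1 count (WT, mouse 4), 4 counts (WT, mouse 5) and 30 counts (Ifngr1_KO, mouse 4). A count of 0 allows up to 3 counts, which is 0.138 to 0.240 CPM at the depths of these libraries. This limit covers counting error only, because PCR copies are counted without molecular identifiers. No fold change is given, since Il1r1 did not pass the filter on low counts and most libraries were at 0.

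Il1r2, the decoy receptor, had 624, 795, 714, 950, 677, 932, 833 and 867 CPM in WT and 701, 838, 702, 1124, 760, 782, 967 and 779 CPM in Ifngr1_KO, in mice 2 to 9. Mouse 5 was highest in each genotype, unlike the ligands, whose highest mouse was 9. The fitted log2 fold change of Il1r2 was 0.055 (SE 0.091, edgeR adjusted p = 0.808), with a ratio interval of 0.904 to 1.19 and Ifngr1_KO above WT in 5 of 8 mice. Its means were 799 ± 119 CPM for WT and 832 ± 145 CPM for Ifngr1_KO (SD, n = 8), in libraries where Il1r1 had at most 30 counts.

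Il1rap, the accessory chain that IL-1, IL-33 and IL-36 receptors share, was the least closely measured of the 6. It had 99.2, 54.0, 94.7, 75.9, 62.2, 96.7, 94.1 and 106 CPM in WT and 155, 87.5, 116, 98.4, 104, 21.4, 90.8 and 65.5 CPM in Ifngr1_KO. Ifngr1_KO was the higher library in mice 2 to 6 and the lower in mice 7, 8 and 9. Il1rap had a log2 fold change of 0.020 (edgeR adjusted p = 0.983, SE 0.31), and the ratio interval of 0.634 to 1.62 leaves room for changes in either direction. Without mouse 7, whose Ifngr1_KO library had 252 counts of Il1rap, a mitochondrial share of 2.503% and the highest share of counts in 10 genes, it was 0.29 (SE 0.17, adjusted p = 0.466). With the mitochondrial share of each library as a covariate it was 0.77 (SE 0.34, adjusted p = 0.590, unadjusted p = 0.0467). No other member moved by as much under the 17 alternatives run.

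Whether a mouse that was high in 1 genotype was also high in the other was examined for each of the 6 members. Across the 8 mice, the log2 CPM of the WT library correlated with that of the Ifngr1_KO library for Il1a at Pearson's r = 0.90 (exact permutation p = 0.00675, adjusted p = 0.0405 over the 6 members; Spearman's rho = 0.62, exact p = 0.115, adjusted p = 0.138). Without mice 7 and 9, the 2 farthest from the WT median, r was 0.68. For Il1b r was 0.74 (exact permutation p = 0.0579, adjusted p = 0.0901; rho = 0.69, p = 0.0694, adjusted p = 0.125) and 0.47 without mice 2 and 9. For Il36g r was 0.73 (exact permutation p = 0.0209, adjusted p = 0.0626; rho = 0.67, p = 0.0831, adjusted p = 0.125), and it dropped to 0.31 without mice 7 and 9, so this relation rests on those mice. Il1rn had r = 0.65 (exact permutation p = 0.0904, adjusted p = 0.108; rho = 0.79, p = 0.0279, adjusted p = 0.0838), and 0.54 without mice 2 and 9. Il1r2 had r = 0.68 (exact permutation p = 0.0600, adjusted p = 0.0901; rho = 0.79, p = 0.0279, adjusted p = 0.0838), and 0.59 without mice 2 and 6. For Il1rap r was -0.20 (exact permutation p = 0.662, adjusted p = 0.662; rho = -0.071, p = 0.882, adjusted p = 0.882), and -0.17 without mice 3 and 6. Only the r of Il1a passed the threshold after adjustment, and its rho did not.

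**Figure D3:**
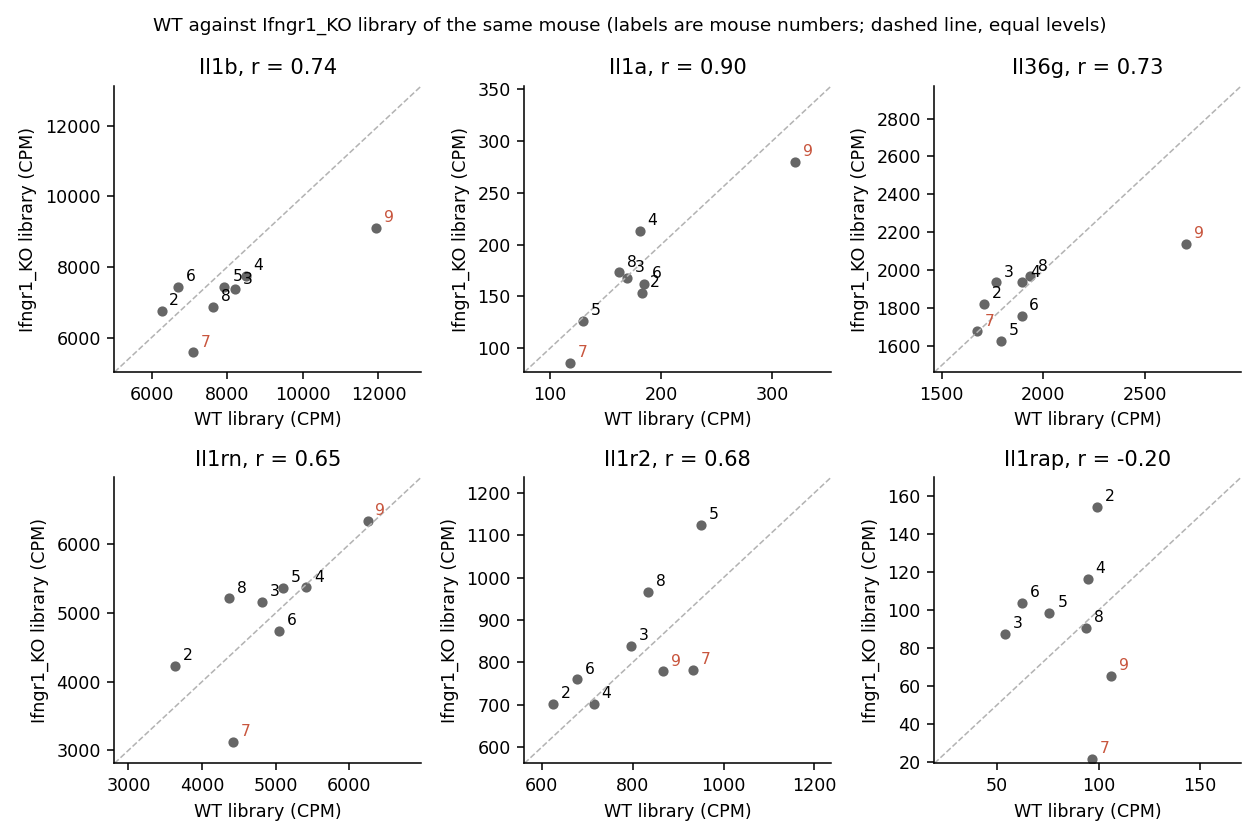
CPM in the WT library (x axis) against the Ifngr1_KO library (y axis) of the same mouse for the 6 tested genes, points numbered by mouse, the numbers 7 and 9 in red; the dashed line marks equal levels, and r was computed on log2 CPM. Mouse 9 lies at the upper right for Il1b, Il1a, Il36g and Il1rn, while for Il1rap the mice show no such order (r = -0.20).

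The members were also set against each other from library to library. After the mean of each genotype was removed, r over the 16 libraries was 0.84 for Il1b with Il1rn, 0.83 for Il1a with Il36g, 0.79 for Il1b with Il36g, 0.75 for Il1a with Il1b, 0.73 for Il1a with Il1rn and 0.64 for Il36g with Il1rn. Without mouse 9, the r of Il1a with Il36g was 0.67. Il1r2 had r of -0.26 to 0.29 with the other 5 genes, and Il1rap 0.0039 to 0.42. These values are descriptions, since the 2 libraries of a mouse share a liver and all libraries share the scaling and RNA quality.

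Genes whose levels were most like each member over the same 16 libraries were looked for among those whose log2 CPM averaged 3 or more. Predicted genes with a Gm number or a name ending in Rik were left out, and the r values describe these libraries only. For Il1b the most similar genes were Slfn2 (r = 0.90), a Schlafen family gene, Olfr1033 (0.87) and Slfn5 (0.87). For Il1rn they were Fyb (0.90), an adaptor of immune cells, Tnf (0.88), the inflammatory cytokine, and Arg2 (0.88), the mitochondrial arginase. For Il1a they were Pip5k1a (0.89), Gpatch8 (0.86) and Sdcbp (0.84). For Il36g they were the noncoding Mir22hg (0.85), Il1a (0.83) and AC160336.1 (0.82), and these dropped to 0.71, 0.67 and 0.51 without mouse 9. Il1r2 had the loosest neighbours, Tsc22d3 (0.77), a glucocorticoid-induced gene, Ercc1 (0.71) and Lgals9 (0.70). Il1rap had Olfm4 (0.96), Cct8 (0.94) and Pygl (0.93), and these were 0.89, 0.87 and 0.83 without mouse 7. Among these neighbours, Slfn2 (log2 fold change -0.41, edgeR adjusted p = 0.0486) and Tnf (-0.42, adjusted p = 0.0198) were called lower in Ifngr1_KO.

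Other genes of the IL-1 pathway were read from 5 lists of 70 genes in all, of which 54 were tested. Of these, 6 fell, 2 rose and 46 were not called, with a median log2 fold change of -0.10 against 0.046 over all genes tested (0.017 against 0.16 with library totals). The lists were chosen with earlier results of these data known, so the share called is a description and not a test. The 8 of 54 called here stand beside 2.80% called among all genes tested. The count was 5 with library totals, 3 with the mitochondrial covariate, 3 without mouse 3 or mouse 8, and 4 without mouse 6 or mouse 9. It was 11 with DESeq2, 10 with limma-voom and 11 without mouse 7. The calls were spread over the binding protein of IL-18, the machinery of IL-1 beta release and the targets, and none was in the signalling chain.

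Among the ligands outside the 7 genes, only Il18 was tested, and it had 6.12 ± 2.38 CPM in WT and 4.73 ± 1.67 CPM in Ifngr1_KO (log2 fold change -0.35, SE 0.33, edgeR adjusted p = 0.641). Il33 summed to 25 counts over the WT and 15 over the Ifngr1_KO libraries, and Il1f5 and Il1f10 were at 0. The binding protein Il18bp, which neutralises IL-18, fell from 634 ± 134 to 114 ± 20.2 CPM (SD, n = 8). Its log2 fold change was -2.47 (SE 0.17, edgeR adjusted p = 1.1e-05, interval -2.84 to -2.10), it was lower in Ifngr1_KO in all 8 mice without overlap, and it kept its call under every alternative tried. Its interval lay wholly below that of the IL-1 antagonist Il1rn, at -0.20 to 0.22 on the same scale. Il18bp shares 80 exonic bases with Numa1 on the opposite strand, which held 7045 counts against 95734 for Il18bp. The receptor chain Il18rap had 60.6 ± 16.3 and 54.2 ± 21.0 CPM and was not called (log2 fold change -0.23, SE 0.35, adjusted p = 0.791).

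In the list of processing and release, 2 of 18 tested genes were called lower and none higher, with a median log2 fold change of -0.18. An unadjusted p under 0.05 was found for 6. Casp1, Gsdmd, Mefv, Casp4 and Nlrp1a were lower in Ifngr1_KO, and Elane was higher, in 8 of 8 mice. Mefv had 275 ± 44.4 CPM in WT and 195 ± 61.4 CPM in Ifngr1_KO (log2 fold change -0.56, SE 0.17, edgeR adjusted p = 0.121). Casp4 had -0.42 (SE 0.15, adjusted p = 0.209) and Nlrp1a -2.26 (SE 0.96, adjusted p = 0.271), and none of these 3 was called. Elane was at a low level, 0.487 ± 0.297 and 2.06 ± 0.800 CPM, and was not called (log2 fold change 2.22, SE 0.71, edgeR adjusted p = 0.142). Casp1, the protease that cuts pro-IL-1 beta, fell from 59.7 ± 12.6 to 33.7 ± 6.48 CPM (-0.82, SE 0.17, edgeR adjusted p = 0.0292), lower in Ifngr1_KO in 8 of 8 mice. Its call was lost with library totals (adjusted p = 0.0538, or 0.0590 without the 10 most abundant genes) and without any 1 of mice 2, 3, 4, 6, 8 and 9 (0.0672 to 0.104), at log2 fold changes of -0.86 to -0.71. Gsdmd, the pore former, fell from 259 ± 34.0 to 151 ± 22.9 CPM (-0.78, SE 0.098, adjusted p = 9.9e-04) and kept its call under every alternative tried. The inflammasome sensor Nlrp3, at 130 ± 34.4 and 131 ± 34.2 CPM, had a log2 fold change of 0.0084 (SE 0.13, interval -0.28 to 0.30), and the adaptor Pycard had 0.23 (SE 0.13), neither called. Ninj1, which mediates rupture of the plasma membrane, was the most abundant gene of the list at 3990 ± 1023 and 4156 ± 806 CPM and was not called (0.075, SE 0.11).

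In the signalling list none of 18 tested genes was called by edgeR, 3 had an unadjusted p under 0.05, and the median log2 fold change was -0.096. The most abundant were Myd88, the adaptor of the receptor complex, with 1161 ± 142 and 896 ± 172 CPM (-0.39, SE 0.12, adjusted p = 0.143; lower in 8 of 8 mice), and the kinase gene Irak2, with 427 ± 69.7 and 313 ± 116 CPM (-0.57, SE 0.24, adjusted p = 0.263).

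In the list of targets, 3 of 14 tested genes fell and 2 rose, with a median of -0.018. Icam1, the adhesion molecule, fell from 3664 ± 859 to 2148 ± 728 CPM (-0.83, SE 0.16, adjusted p = 0.0206), Sod2, the mitochondrial superoxide dismutase, from 1323 ± 165 to 944 ± 110 CPM (-0.48, SE 0.092, adjusted p = 0.0172), and Tnf from 1534 ± 292 to 1148 ± 228 CPM (-0.42, SE 0.082, adjusted p = 0.0198). Icam1 shares 511 exonic bases with Gm47079 on the opposite strand, which held 347 counts against 722821. Cxcl3, a ligand of CXCR2, rose from 10.9 ± 4.03 to 23.4 ± 7.93 CPM (1.12, SE 0.21, adjusted p = 0.0167), and Ier3, an immediate early gene, from 1840 ± 381 to 2806 ± 609 CPM (0.60, SE 0.10, adjusted p = 0.00800). Nfkbia, the inhibitor gene that NF-kB induces, was not called and had an interval as narrow as those of the ligands (-0.016, SE 0.088, interval -0.21 to 0.18), as had Lcn2 (-0.0038, SE 0.10). Without the mouse block Tnf and Icam1 were not called (adjusted p = 0.165 and 0.0873). With the mitochondrial covariate none of the 5 was called: adjusted p was 0.540 for Icam1 (-0.51), 0.171 for Sod2 (-0.52), 0.354 for Tnf (-0.32), 0.0783 for Cxcl3 (1.41) and 0.284 for Ier3 (0.42). Library totals ended the calls of Tnf and Icam1 (0.0873 and 0.0552) and the lack of a filter that of Tnf (0.0723). Leaving out 1 mouse at a time ended those of Tnf (mice 3, 4, 5, 6, 8 or 9; up to 0.0764), Sod2 (3, 5, 6, 8 or 9; up to 0.0672), Icam1 (3, 6 or 8; up to 0.0782) and Cxcl3 (3, 8 or 9; up to 0.0591).

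**Figure D4:**
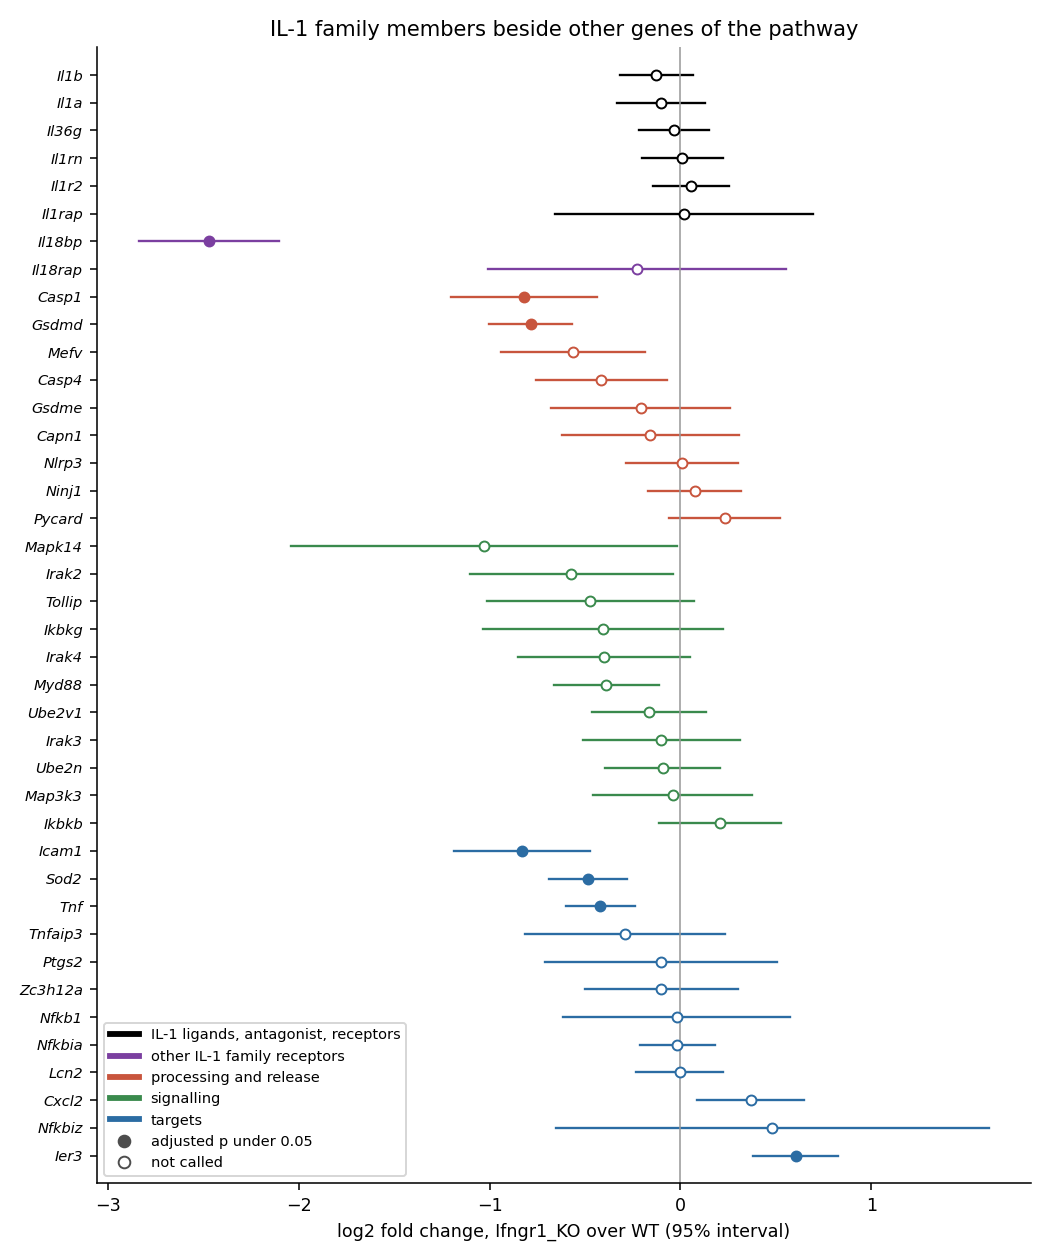
Log2 fold change (Ifngr1_KO over WT, point) with its 95% interval (line) for the 6 tested IL-1 ligands, antagonist and receptors and for the 34 tested pathway genes with a mean of at least 20 CPM, coloured by list, filled where the edgeR adjusted p was under 0.05. The black intervals of the family all cross 0 and, apart from Il1rap, stay within -0.33 to 0.25, while Il18bp lies at -2.47 and Casp1 and Gsdmd near -0.8.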

How the data were processed

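The authors deposited estimated counts per Ensembl gene, as unscaled whole numbers. Salmon 0.14.2, DESeq2 1.22.1 and mm10 are named in the submitters' processing notes, without their roles or the annotation release. Per the labels' protocols, cDNA was primed with oligo-dT (SMARTseq V4, 1 ng of RNA, 13 PCR cycles), a kit that neither marks strand nor adds molecular identifiers.

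Sample titles gave genotype and mouse. The design text states that libraries of 1 number share a mouse, so mouse was kept as a block. Names and positions came from GENCODE M21, promoter sequences from RefSeq GRCm38.p6. In R 4.3.3 with edgeR 4.0.16, filterByExpr kept 9851 genes holding 99.7% of counts, TMM scaled the libraries, and quasi-likelihood F-tests were adjusted by Benjamini-Hochberg over all genes tested (threshold 0.05). Standard errors were derived from F, and 95% intervals use the test's degrees of freedom. CPM are TMM-scaled, and log2 CPM add a prior count of 2. Ratios add 0.5 to each count; that of Il1r2 to Il1r1 is left out because Il1r1 was at 0 in 13 libraries, but it counts among the 3 in the adjustment. The code was tested on simulated data.

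The members and gene lists were chosen with earlier results of these data known. Text names all members; called list genes, at most 4 per direction by smallest p, else the 2 of highest CPM; and the 3 genes most correlated with each member. Il18, Il18rap, Il33, Il36a, Il36b, Il1rl2, Il1f5, Il1f10, Elane, Mefv, Casp4, Nlrp1a, Nlrp3, Pycard, Ninj1, Nfkbia and Lcn2 were named after their values were seen. Alternatives used DESeq2 1.42.0, limma-voom (limma 3.58.1), other scaling and filters, no block, a mitochondrial covariate, or left out each mouse. Library totals were 12.5 to 21.7 M counts.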

Additional observations from a re-analysis of the deposited data

Results flagged for a closer look

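In groups of 8 libraries, a value was singled out where its gap to the nearest other library, divided by the range of the group, exceeded Dixon's critical value of 0.526. Of 18 groups of values searched, 5 held such a library; chance alone would single out about 1 in 20 groups, a rate that does not apply to the 2 groups of Il1r1, made up almost wholly of zeros. Of the 5, 3 were in 1 library, the WT library of mouse 9: Il1a at 321 CPM (the other 7 WT libraries had 118 to 185), Il1b at 11936 CPM (6264 to 8493) and Il36g at 2701 CPM (1673 to 1936). The Ifngr1_KO library of the same mouse was also the highest of its group for these genes, at 280, 9103 and 2141 CPM. The other 2 were in Il1r1, at 0.209 CPM in the WT library of mouse 5 (4 counts) and at 2.20 CPM in the Ifngr1_KO library of mouse 4 (30 counts), where the other Ifngr1_KO libraries were at 0.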

How the results depend on the processing

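None of the 6 members tested was called in any of the 17 alternatives, and Il1b and Il1r2 kept their sign in all of them, at -0.17 to -0.0096 for Il1b (-0.016 with library totals, -0.0096 with the mitochondrial covariate) and 0.027 to 0.17 for Il1r2. The others changed sign around 0. With library totals, Il1a had a log2 fold change of 0.0088 and Il36g 0.075; without the 10 most abundant genes in the totals 0.010 and 0.077; with the mitochondrial covariate 0.028 and 0.040. Il1rn had -0.017 with no filter, 0.12 with library totals, 0.12 without the 10 most abundant genes in them and 0.15 with the mitochondrial covariate. Leaving out 1 mouse gave -0.15 (without mouse 4) to -0.052 (without mouse 7) for Il1a, 0.027 (without mouse 5) to 0.098 for Il1r2, -0.058 to 0.0058 for Il36g, -0.019 to 0.080 for Il1rn, -0.091 to 0.29 for Il1rap and -0.026 to 0.079 for the log2 ratio of Il1a to Il1b. Library totals moved the median of all genes from 0.046 to 0.16.

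The number of genes called, 276, was 1060 with DESeq2, 597 with limma-voom, 93 with the mitochondrial covariate and 163 to 412 with 1 mouse left out. Of the pathway genes, 8 were called, against 5 with library totals, 3 with the mitochondrial covariate and 3 to 11 with 1 mouse left out. DESeq2 called 11 of them and limma-voom 10. The causes of these shifts were not tested. Without the replicate block, 268 genes and 6 pathway genes were called, and the log2 fold changes were -0.14 for Il1b, -0.090 for Il1a, -0.047 for Il36g, 0.018 for Il1rn, 0.058 for Il1r2 and 0.11 for Il1rap. Il1r1 was too low for the filter and had no test in the main fit. The fit without a filter included it, but that result is not given.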
